A study of Mus musculus with 18 samples.

Results

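The calcium release and sarcoplasmic reticulum genes followed here are 10 of the 19938 genes measured on 18 Affymetrix mouse gene arrays of C2C12 cells, a mouse myoblast line that forms myotubes in differentiation medium. They were chosen by name, with earlier results of these data known: Casq1, Casq2, Srl, Ryr1, Cacna1s, Cacng1, Atp2a1, Atp2a2, Jph1 and Jph2. Counts of members set beside shares of all genes are therefore descriptions. Each gene was read from the brightest transcript cluster that the array annotation assigns to it alone, and all 10 had one. In every group the cells' own TAF3, a subunit of the general transcription factor TFIID, had been stably depleted with shRNAs and replaced by murine TAF3. The 3 genotypes were KK-TAF3 sh-PIP4K2B, WT-TAF3 sh-PIP4K2B and WT-TAF3 shX. KK-TAF3 is the mutant that no longer binds phosphoinositides, and PIP4K2B is the nuclear kinase that phosphorylates PtdIns5P. Each genotype was assayed after etoposide, which breaks DNA through topoisomerase II, at 10 µM for 7 hours, and after differentiation for 2 days by the sample names (the series design text gives 3). Each of the 6 groups had 3 arrays, described in the methods as biological triplicates of stable lines. KK-TAF3 cells without PIP4K2B depletion and untreated myoblasts were not among the samples, so the mutant was compared only in depleted cells, and etoposide only with differentiation.

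In skeletal muscle an action potential enters the cell along the T-tubules, where the dihydropyridine receptor senses the voltage and opens the ryanodine receptor in the facing membrane of the sarcoplasmic reticulum. Calsequestrins hold the calcium inside that store, junctophilins keep the pair of membranes close together, and SERCA pumps return the calcium after contraction. Most of these genes are switched on as myoblasts differentiate into myotubes.

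Pip4k2b itself was lower in WT-TAF3 sh-PIP4K2B than in WT-TAF3 shX cells by a log2 difference of -1.14 (SE 0.10) after differentiation and -0.88 (SE 0.10) after etoposide, and Taf3 passed the threshold in no comparison. After differentiation Pip4k2b averaged 9.86 in KK-TAF3 sh-PIP4K2B cells, against 9.55 in WT-TAF3 sh-PIP4K2B cells. All KK-TAF3 arrays were the higher ones, but the difference of 0.31 was not called (adjusted p = 0.255); Taf3 was at -0.17 with all KK-TAF3 arrays lower (adjusted p = 0.456). The part of these differences in the KK-TAF3 comparison was not tested. The median of all values on an array lay between 7.25 and 7.46, and after differentiation it was 7.25 to 7.33 on WT-TAF3 sh-PIP4K2B arrays against 7.36 to 7.41 on WT-TAF3 shX arrays, so that these groups did not overlap. All of 12 muscle identity and differentiation markers had a transcript cluster. In differentiated WT-TAF3 shX cells the mean log2 signals of Des, Acta1, Ckm, Myod1, Myog and Myh3 were 12.78, 10.48, 8.29, 8.16, 7.70 and 6.89. In that group 4 of the 12, Myh3 among them, lay below the array median. The mean of the 12 was 8.79 to 8.81 per array there, against 10.30 to 10.35 for 8 smooth muscle and fibroblast markers. The files hold no detection call, and the mean signals of Casq1, Casq2, Ryr1 and Cacna1s lay below the median gene.

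RefSeq promoter windows on GRCm38.p6 were found for 6 of the 10 genes: Casq1, Casq2, Ryr1, Cacna1s, Atp2a1 and Jph2. Srl, Cacng1, Atp2a2 and Jph1 were not matched. The 250 bases before the annotated start are shown for Casq2, Casq1 and Jph2. Casq2 changed most between genotypes, and its paralogue Casq1 passed no test. Jph2 was called between the treatments in WT-TAF3 shX cells alone. Jph2 has a second start, and its upstream one is used. The windows lie at chr3:102086165-102086414 on the plus strand, chr1:172219896-172220145 on the minus strand and chr2:163397994-163398243 on the minus strand. Capitals mark the E box CANNTG, the letters that myogenic bHLH factors can bind, on either strand.
Casq2: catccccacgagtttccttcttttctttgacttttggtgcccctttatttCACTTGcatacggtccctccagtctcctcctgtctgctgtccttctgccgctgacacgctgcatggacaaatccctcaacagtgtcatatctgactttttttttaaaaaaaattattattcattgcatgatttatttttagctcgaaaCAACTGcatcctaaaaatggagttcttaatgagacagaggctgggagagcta
Casq1: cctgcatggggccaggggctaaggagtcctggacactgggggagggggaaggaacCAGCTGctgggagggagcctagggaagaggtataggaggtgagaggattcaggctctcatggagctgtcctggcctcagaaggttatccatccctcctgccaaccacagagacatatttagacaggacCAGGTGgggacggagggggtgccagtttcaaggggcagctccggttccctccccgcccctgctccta
Jph2: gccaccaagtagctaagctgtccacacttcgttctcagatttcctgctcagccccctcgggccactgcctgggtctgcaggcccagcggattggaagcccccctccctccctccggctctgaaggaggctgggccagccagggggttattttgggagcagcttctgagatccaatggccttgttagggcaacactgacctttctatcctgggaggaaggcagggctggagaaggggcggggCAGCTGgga
The Casq2 window held 2 E boxes, starting 200 and 52 bases before the start, and neither was the palindrome CAGCTG. Casq1 held 2, of which the one at 195 bases was CAGCTG, and Jph2 held 1, a CAGCTG 9 bases before the start. Of the 6 matched genes 4 had a CAGCTG (Casq1, Cacna1s, Atp2a1 and Jph2) and 5 a CANNTG, which includes every CAGCTG, while Ryr1 had none. TATAAA was in none of the 6. Over all 32851 windows of this length 13% held CAGCTG, 66.2% CANNTG and 12.4% TATAAA on either strand. A match is a description of letters, and no binding was measured here.

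PIP4K2B depletion was first examined in differentiated cells, where WT-TAF3 sh-PIP4K2B arrays were compared with WT-TAF3 shX arrays. Casq2, the calsequestrin of heart and slow muscle, and Srl, which encodes the luminal calcium-binding protein sarcalumenin, were both higher after depletion. No member was called lower. A gene was called at an adjusted p under 0.05 in limma with a change above 1.4-fold, and 2 of 10 members were called higher, where 1.06% of all genes were called in either direction. The median log2 difference of the 10 was 0.24, against -0.02 over all genes.

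Casq2 had log2 signals of 7.63, 7.74 and 7.86 on the WT-TAF3 sh-PIP4K2B arrays, against 6.91, 6.96 and 7.17 on the WT-TAF3 shX arrays. The groups were well apart, with the lowest depleted array above the highest control array. The log2 difference was 0.73 (SE 0.08, adjusted p = 3.52e-05), or 1.66-fold. Srl, the other luminal protein, read 8.35, 8.59 and 8.71 on the depleted arrays, against 7.92, 7.95 and 8.07 on the controls. These arrays did not overlap either, although the depleted ones were spread more widely. The difference was 0.57 (SE 0.08, adjusted p = 0.000506), or 1.49-fold, and it fell short of 1.4-fold at 0.47 (adjusted p = 0.0121) when the median of each array was a covariate. Casq1, the calsequestrin of fast muscle, gave 7.26, 7.04 and 7.15 after depletion, against 7.02, 6.96 and 7.06 in controls. Its arrays overlapped, and its difference of 0.13 (95% confidence interval -0.06 to 0.33) was not called.

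Jph1 and Jph2, the junctophilins that tie the T-tubule to the store, and Atp2a1, the SERCA1 pump of fast muscle, had smaller differences. Jph1 read 8.95, 9.19 and 9.02 in depleted cells, against 8.50, 8.65 and 8.67 in controls, a difference of 0.44 (SE 0.08, adjusted p = 0.00239). Jph2 read 8.94, 8.93 and 8.94, against 8.48, 8.58 and 8.56, a difference of 0.40 (SE 0.09, adjusted p = 0.0186). Atp2a1 read 8.75, 8.96 and 8.82, against 8.56, 8.51 and 8.45, a difference of 0.34 (SE 0.08, adjusted p = 0.0188). In all 3 genes the depleted arrays lay above every control array, but none reached 1.4-fold. With each array centred on its median Jph1 (0.54) and Jph2 (0.50) were called, which made 4 members, while with that median as a covariate the adjusted p was 0.0435 for Jph1, 0.212 for Jph2 and 0.277 for Atp2a1. When 1 array was left out, the adjusted p of Jph2 was 0.0546 to 0.0977 in 4 of 6 fits (all but those without WT-TAF3 sh-PIP4K2B replicate 1 or WT-TAF3 shX replicate 3) and that of Atp2a1 was 0.0517 to 0.130 in 5 of 6 (all but that without WT-TAF3 sh-PIP4K2B replicate 1). With all arrays and no covariate, 5 of 10 members had an adjusted p under 0.05, where 6.14% of all genes did. The second Jph1 cluster on the array was called, at 0.66 (adjusted p = 0.00110), while the second Jph2 cluster differed by 0.21 (adjusted p = 0.185).

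The channel genes Ryr1, Cacng1 and Cacna1s and the pump gene Atp2a2 were not called. Ryr1 and Cacna1s lay below the median gene in signal, where RMA compresses changes. So did Casq2, which was called and had the same mean signal as Cacna1s (6.91). The part of signal level in these results was not tested. For Ryr1, the release channel of skeletal muscle, the difference was 0.05 with a 95% confidence interval of -0.10 to 0.20. For Cacng1, the gamma subunit of the dihydropyridine receptor, it was 0.01 (-0.15 to 0.17), and for Atp2a2, the SERCA2 pump, -0.02 (-0.21 to 0.17). These 3 intervals lie inside 1.4-fold in both directions. Cacna1s, the voltage-sensing alpha subunit, read 6.91, 6.79 and 6.88 in depleted cells, against 7.13, 7.03 and 6.94 in controls. Every depleted array was the lower one, but the difference of -0.18 was not called (adjusted p = 0.131). Arrays of the groups did not overlap in 6 of 10 members, where 44.5% of all genes did not.

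**Figure D1:**
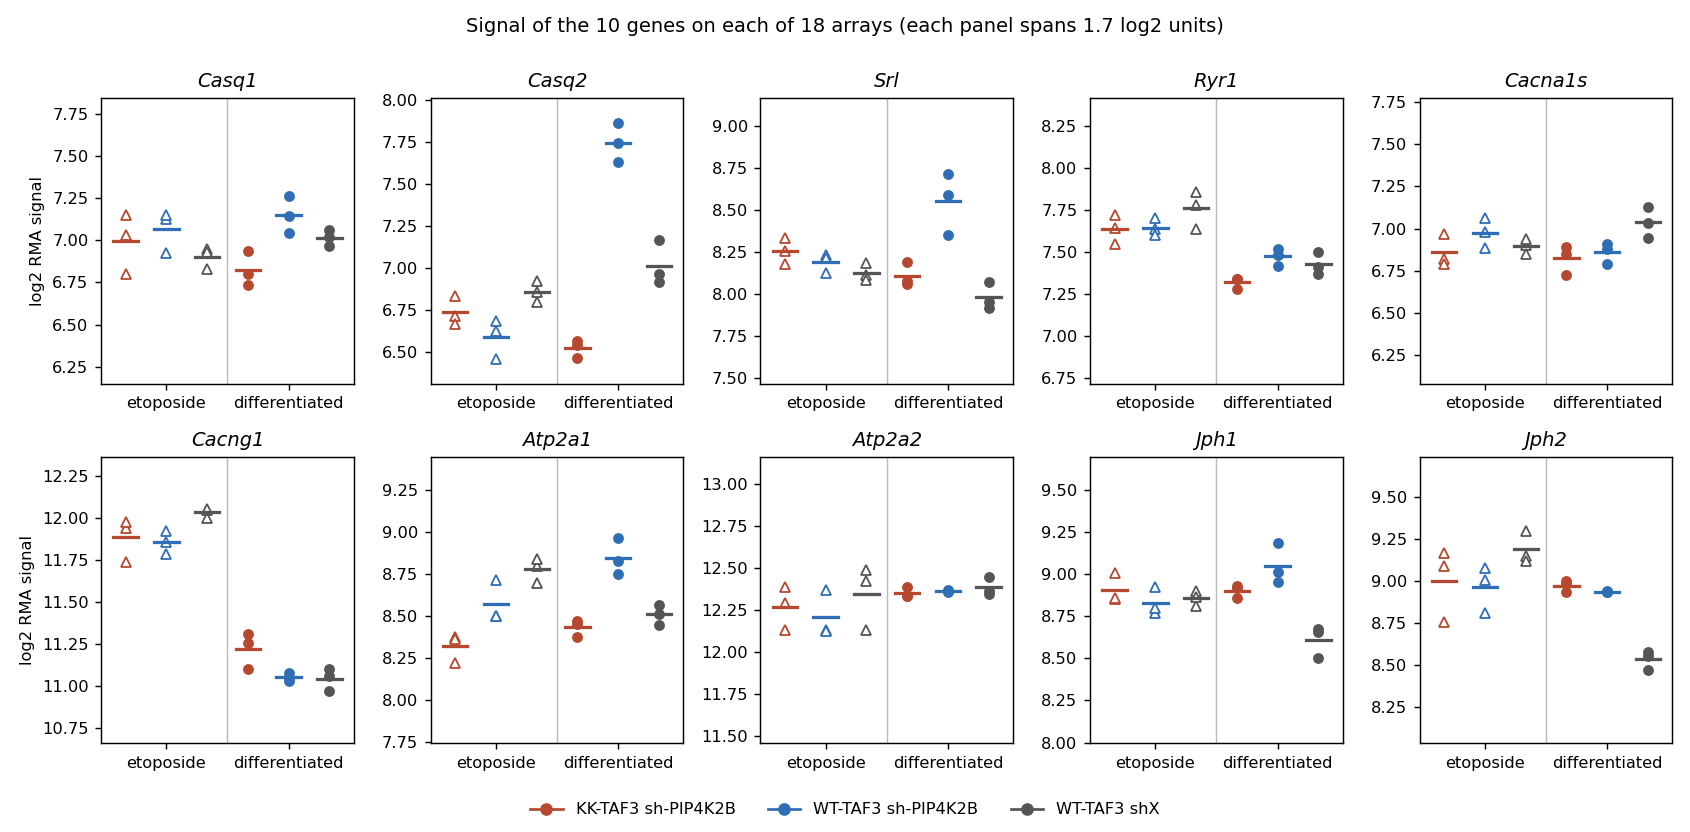
Log2 RMA signal of each of the 10 genes on all 18 arrays, etoposide at left and differentiation at right of each panel, with genotypes in colour; points are arrays and bars are means of 3. The differentiated WT-TAF3 sh-PIP4K2B arrays of Casq2 (7.63 to 7.86) and Srl (8.35 to 8.71) sit above every array of the other groups, and Cacng1 is higher after etoposide in each genotype.

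KK-TAF3 cells were then set against WT-TAF3 cells, both with sh-PIP4K2B and both differentiated. These are separate stable lines, and the part of phosphoinositide binding alone was not tested. Casq2 was lower in KK-TAF3 cells and was the 1 member called of 10, where 0.517% of all genes were called in either direction. Its signals were 6.46, 6.56 and 6.54 on the KK-TAF3 arrays, against 7.63, 7.74 and 7.86 on the WT-TAF3 arrays. More than a log2 unit separated the nearest arrays. The log2 difference was -1.22 (SE 0.08, adjusted p = 6.46e-08), a 2.33-fold change.

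Srl read 8.19, 8.06 and 8.08 in KK-TAF3 cells, against 8.35, 8.59 and 8.71 in WT-TAF3 cells. The groups did not overlap, and the difference of -0.44 (SE 0.08, adjusted p = 0.00823) was short of 1.4-fold; without WT-TAF3 sh-PIP4K2B replicate 1 it was -0.54 and would have been called. Atp2a1 read 8.45, 8.47 and 8.37 in KK-TAF3 cells, against 8.75, 8.96 and 8.82 in WT-TAF3 cells, also without overlap. Its difference was -0.41 (SE 0.08, adjusted p = 0.00825). The adjusted p was above 0.05 for Srl without WT-TAF3 sh-PIP4K2B replicate 3 (0.0772) or KK-TAF3 sh-PIP4K2B replicate 2 (0.0576), and for Atp2a1 without WT-TAF3 sh-PIP4K2B replicate 2 (0.0686) or KK-TAF3 sh-PIP4K2B replicate 3 (0.0562) and with centred arrays (0.0529). With all arrays Srl and Atp2a1 made it 3 of 10 members that had an adjusted p under 0.05, where 0.978% of all genes did. Casq1 gave 6.73, 6.80 and 6.94 in KK-TAF3 cells, against 7.26, 7.04 and 7.15 in WT-TAF3 cells, a difference of -0.33 (adjusted p = 0.136). Arrays did not overlap in 7 of 10 members, where 21% of all genes did not.

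Neither junctophilin was called here, but every KK-TAF3 array of Jph1 (8.86 to 8.93) lay below every WT-TAF3 array (8.95 to 9.19). The second Jph1 cluster differed by -0.23 (adjusted p = 0.521 in limma). Jph2 read 8.99, 9.0 and 8.93 in KK-TAF3 cells, against 8.94, 8.93 and 8.94 in WT-TAF3 cells, and its difference was 0.04 (-0.16 to 0.23). For Jph1 it was -0.15 (-0.31 to 0.01), for Cacng1 0.17 (0.015 to 0.33), for Ryr1 -0.15 (-0.30 to -0.01), for Cacna1s -0.04 (-0.19 to 0.12) and for Atp2a2 -0.01 (-0.20 to 0.18). None of these was called, and none of the intervals reached 1.4-fold. The median over the 10 members was -0.15, against 0.02 over all genes.

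Both comparisons rest on the same WT-TAF3 sh-PIP4K2B arrays, so a high value there raises one difference and lowers the other. The comparison of KK-TAF3 sh-PIP4K2B with WT-TAF3 shX cells does not use them. After differentiation it called Casq2 alone, lower in KK-TAF3 sh-PIP4K2B cells at -0.49 (SE 0.08, adjusted p = 0.00185), where 1.26% of all genes were called. All 3 KK-TAF3 sh-PIP4K2B arrays (6.46 to 6.56) lay below the WT-TAF3 shX arrays (6.91 to 7.17), but the difference barely passed 1.4-fold. It was -0.46 without KK-TAF3 sh-PIP4K2B replicate 1, -0.41 without WT-TAF3 shX replicate 3 and -0.40 with each array centred on its median, and it was not called in any of these. Jph2 was higher by 0.44 (SE 0.09, adjusted p = 0.00922) and Jph1 by 0.29 (SE 0.08, adjusted p = 0.0253), short of 1.4-fold; with the array median as a covariate their adjusted p was 0.0969 and 0.227, and with centred arrays Jph2 was called at 0.53. For Srl the difference was 0.13 (-0.04 to 0.30) and for Atp2a1 -0.08 (-0.24 to 0.09).

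The mean of the muscle differentiation markers moved with Casq2, but not every marker did. Called or not, 9 of 12 were higher on depletion. In KK-TAF3 cells 4 of 12 were higher than in WT-TAF3 cells, Myod1 and Des among them. The mean log2 signal of the 12 markers was 8.49 to 8.58 on KK-TAF3 sh-PIP4K2B arrays, 9.01 to 9.04 on WT-TAF3 sh-PIP4K2B arrays and 8.79 to 8.81 on WT-TAF3 shX arrays. After depletion 1 of 12 was called higher (Tnnt3, at 0.83) and none lower. In KK-TAF3 cells 5 of 12 were called lower and none higher: Mymk at -1.57, Acta1 at -1.18, Myog at -1.02, Myh3 at -0.93 and Tnnt3 at -0.57. In whole cultures, more differentiated cells and more RNA per cell cannot be told apart, and the part of these markers in the Casq2 and Srl differences was not tested. Of 8 cardiac muscle markers none was called in either comparison, and their mean signal was 6.93 to 7.03 in KK-TAF3 sh-PIP4K2B cells, 6.96 to 7.08 in WT-TAF3 sh-PIP4K2B cells and 7.13 to 7.18 in WT-TAF3 shX cells. Of 8 reserve cell markers 1 was called lower in each comparison. Of 8 smooth muscle and fibroblast, 6 fat cell, 4 bone, 6 macrophage and 6 neural markers measured, none was called in either.

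**Figure D2:**
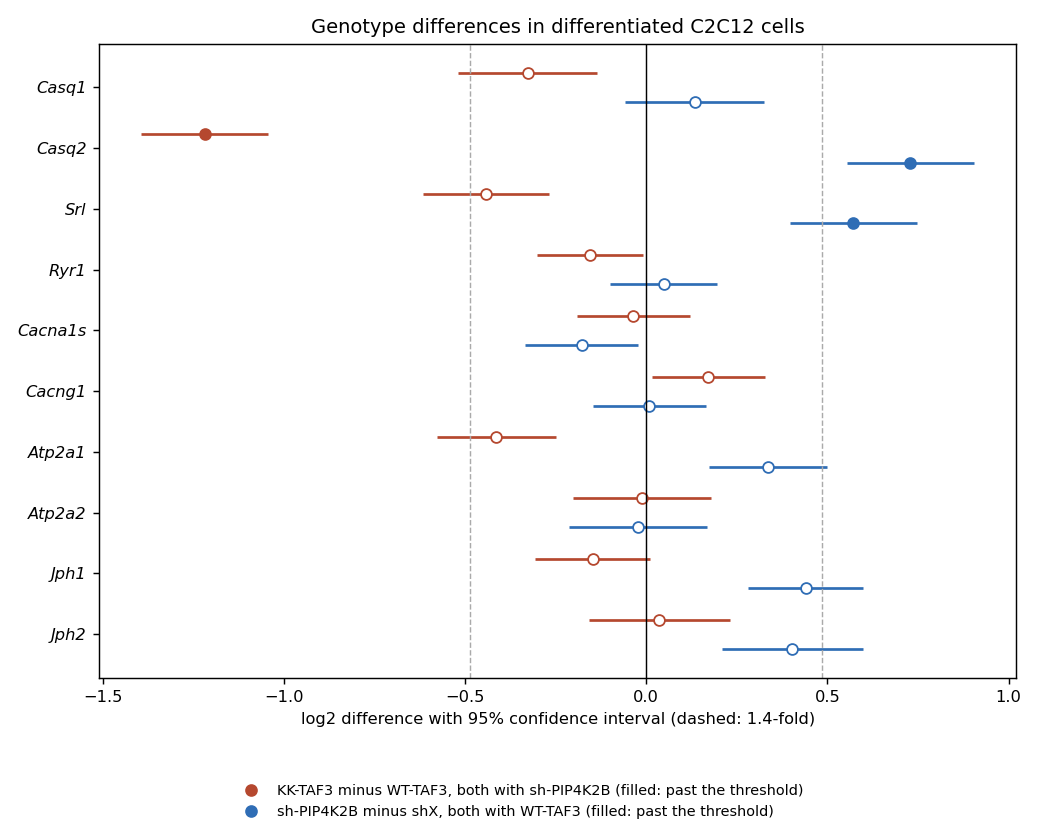
Log2 differences in differentiated cells with 95% confidence intervals for KK-TAF3 minus WT-TAF3 (both with sh-PIP4K2B) and for sh-PIP4K2B minus shX (both with WT-TAF3); filled points were called and dashed lines mark 1.4-fold. Casq2 is the only gene called in both, at -1.22 and 0.73, and the WT-TAF3 sh-PIP4K2B arrays are shared by the comparisons.

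After etoposide no genotype comparison called any of these genes. No member was called for PIP4K2B depletion, where 0.868% of all genes were called, for KK-TAF3 against WT-TAF3 cells, where 0.406% were, or when KK-TAF3 sh-PIP4K2B cells were set against WT-TAF3 shX cells, where 1.15% were. In limma at an unadjusted p under 0.05 the counts were 4, 1 and 1 of 10 in this order, where 16.5%, 15.3% and 11.9% of all genes had such a p, and 0 in each with the fold limit. Casq2 read 6.71, 6.67 and 6.83 in KK-TAF3 sh-PIP4K2B cells, 6.62, 6.46 and 6.69 in WT-TAF3 sh-PIP4K2B cells and 6.80, 6.86 and 6.92 in WT-TAF3 shX cells. The depleted WT-TAF3 arrays lay below the shX arrays, opposite to differentiated cells, with a difference of -0.27 (SE 0.08, adjusted p = 0.102). Srl overlapped between the same groups and differed by 0.06 (-0.11 to 0.24). Arrays did not overlap in 3 of 10 members for depletion (Casq2, Cacng1 and Jph2), where 15% of all genes did not, and in 1 of 10 for KK-TAF3 (Atp2a1), where 10.8% did not.

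Atp2a1 had the largest genotype difference after etoposide among the 10. It read 8.37, 8.36 and 8.22 in KK-TAF3 sh-PIP4K2B cells, 8.71, 8.50 and 8.50 in WT-TAF3 sh-PIP4K2B cells and 8.79, 8.84 and 8.69 in WT-TAF3 shX cells. The KK-TAF3 arrays were the lowest and overlapped with neither WT-TAF3 group. KK-TAF3 sh-PIP4K2B cells differed from WT-TAF3 shX cells by -0.46 (SE 0.08, adjusted p = 0.00166), just short of 1.4-fold, and the call was made without WT-TAF3 shX replicate 3 (-0.50) or without KK-TAF3 sh-PIP4K2B replicate 1 (-0.49). Within depleted cells, the KK-TAF3 difference was -0.25 (adjusted p = 0.164).

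Whether depletion acted differently under the treatments was tested directly, as the depletion effect after etoposide minus that after differentiation. This difference was called lower in 4 of 10 members, Casq2, Jph2, Atp2a1 and Srl, and higher in none, where 4.02% of all genes were called in either direction. Casq2 had a depletion effect of -0.27 after etoposide and 0.73 after differentiation, so the effects differed by -0.997 (SE 0.12, adjusted p = 0.000122). Its etoposide means (6.59 depleted, 6.86 control) lay below the array medians of those groups (7.32 to 7.46). Without a detection call these signals cannot be told from background. Jph2 had -0.23 after etoposide and 0.40 after differentiation and differed by -0.63 (SE 0.13, adjusted p = 0.0154). Atp2a1 had -0.21 and 0.34 in this order and differed by -0.54 (SE 0.11, adjusted p = 0.0128), and Srl had 0.06 and 0.57 and differed by -0.51 (SE 0.12, adjusted p = 0.0236). None of these effects after etoposide was called by itself (adjusted p between 0.102 and 0.700), so the test shows that the effects differed and not that any of them turned round.

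Jph1 had effects of -0.03 after etoposide and 0.44 after differentiation, which differed by -0.47 (SE 0.11, adjusted p = 0.0218), short of 1.4-fold, with an adjusted p of 0.362 when the array median was a covariate. Its second cluster was called, at -0.88 (adjusted p = 0.00315), and the second Jph2 cluster was not, at -0.50 (adjusted p = 0.0637). With Jph1, 5 of 10 members had an adjusted p under 0.05, where 6.67% of all genes did. The other 5 members differed by between -0.19 (Cacng1) and 0.26 (Cacna1s) and none was called. The array medians moved with this difference: centring each array on its median shifted the median of all genes by -0.14, and with the median as a covariate Casq2 stayed called at -0.96 (adjusted p = 0.00461), whereas Jph2 (-0.51, adjusted p = 0.247), Atp2a1 (-0.35, adjusted p = 0.271) and Srl (-0.36, adjusted p = 0.367) did not. Single arrays mattered too: the call was lost for Atp2a1 without WT-TAF3 sh-PIP4K2B differentiated replicate 2 (-0.48, adjusted p = 0.0466) and for Jph2 without WT-TAF3 shX differentiated replicate 1 (-0.60, adjusted p = 0.0527). For Srl it was lost in 7 of 12 fits that each left out 1 array, with values from -0.61 to -0.43 over the 12; these were without WT-TAF3 sh-PIP4K2B replicate 2 or 3 or WT-TAF3 shX replicate 1 or 2 after differentiation, and without WT-TAF3 sh-PIP4K2B replicate 2 or 3 or WT-TAF3 shX replicate 1 after etoposide.

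The same test for KK-TAF3 against WT-TAF3 called Casq2 alone, where 0.15% of all genes were called. Its KK-TAF3 effect was 0.15 after etoposide and -1.22 after differentiation, a difference of 1.37 (SE 0.12, adjusted p = 1.74e-05). The Casq2 means in KK-TAF3 cells, 6.74 after etoposide and 6.52 after differentiation, also lay below the array medians. Srl had 0.06 after etoposide and -0.44 after differentiation, a difference of 0.50 (SE 0.12, adjusted p = 0.150) that was called without WT-TAF3 sh-PIP4K2B differentiated replicate 1 (0.60, adjusted p = 0.0330).

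**Figure D3:**
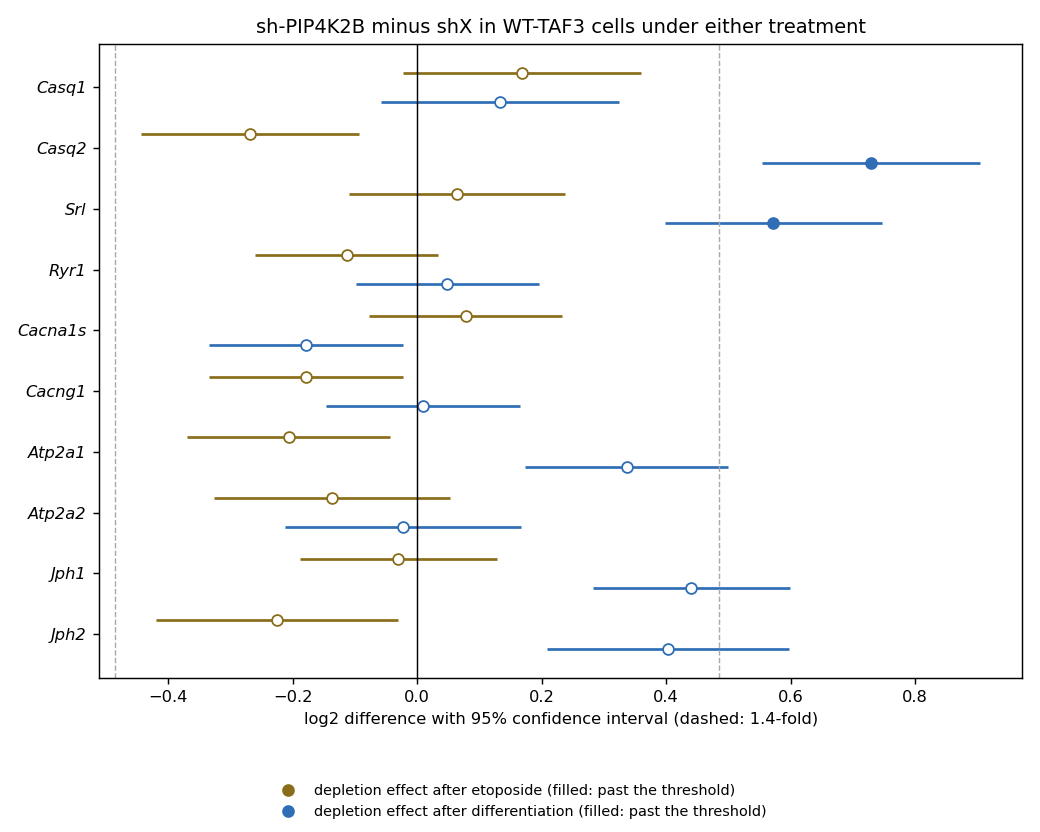
Effect of PIP4K2B depletion in WT-TAF3 cells (log2 of sh-PIP4K2B minus shX, with 95% confidence intervals) after etoposide and after differentiation; filled points were called and dashed lines mark 1.4-fold. The effects of Casq2 lie at -0.27 and 0.73, those of Jph2 at -0.23 and 0.40 and those of Atp2a1 at -0.21 and 0.34.

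Etoposide-treated cells were compared with differentiated cells within each genotype. Medium, time and drug all differ between these conditions, and their parts cannot be told apart. Cacng1 was higher after etoposide in each of the 3 genotypes. In WT-TAF3 shX cells 2 of 10 members were called higher, Cacng1 and Jph2, and none lower, where 7.63% of all genes were called. In WT-TAF3 sh-PIP4K2B cells Cacng1 was called higher and Casq2 lower, where 9.95% were called, and in KK-TAF3 sh-PIP4K2B cells Cacng1 alone was called, where 8.33% were.

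Cacng1 read 11.998, 12.05 and 12.05 after etoposide, against 11.10, 11.06 and 10.97 after differentiation, in WT-TAF3 shX cells, a difference of 0.99 (SE 0.07, adjusted p = 1.28e-08). In WT-TAF3 sh-PIP4K2B cells it read 11.78, 11.86 and 11.92 after etoposide, against 11.03, 11.08 and 11.05 after differentiation, a difference of 0.80 (adjusted p = 1.68e-07). In KK-TAF3 sh-PIP4K2B cells it read 11.94, 11.98 and 11.74 after etoposide, against 11.31, 11.26 and 11.10 after differentiation, a difference of 0.66 (adjusted p = 2.12e-06). No etoposide array of Cacng1 overlapped with a differentiated array. Cacna1s, of the same receptor and below the median gene in signal, differed by -0.14, 0.12 and 0.04 in the same genotypes and was not called. Of the accessory subunits, Cacnb1 was called higher after etoposide in WT-TAF3 shX cells alone, with means of 8.72 against 8.16. Cacna2d1 was called lower in WT-TAF3 sh-PIP4K2B cells, with means of 11.24 against 11.93.

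Jph2 was called higher after etoposide in WT-TAF3 shX cells alone. It read 9.15, 9.30 and 9.12 after etoposide, against 8.48, 8.58 and 8.56 after differentiation, in WT-TAF3 shX cells, a difference of 0.65 (SE 0.09, adjusted p = 3.07e-05). Its second cluster was called there as well, at 0.57 (adjusted p = 0.000263). In WT-TAF3 sh-PIP4K2B cells the difference was 0.03 (-0.17 to 0.22) and in KK-TAF3 sh-PIP4K2B cells 0.03 (-0.17 to 0.22). The differentiated WT-TAF3 shX arrays were the low ones, and the other 5 groups ran from 8.76 to 9.30. The test of this difference between WT-TAF3 genotypes is the one given above for the depletion effect. There the second cluster was not called (-0.50, adjusted p = 0.0637 in limma). The call of the main cluster was lost with the array median as a covariate and without WT-TAF3 shX differentiated replicate 1.

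Casq2 changed with the treatment in 1 genotype. In WT-TAF3 sh-PIP4K2B cells it was lower after etoposide by -1.15 (SE 0.08, adjusted p = 6.82e-09), whereas it differed by -0.16 (adjusted p = 0.195) in WT-TAF3 shX cells and by 0.21 (adjusted p = 0.0705) in KK-TAF3 sh-PIP4K2B cells. Over the 6 groups its mean was highest in differentiated WT-TAF3 sh-PIP4K2B cells (7.74), followed by differentiated WT-TAF3 shX cells (7.01), WT-TAF3 shX (6.86), KK-TAF3 sh-PIP4K2B (6.74) and WT-TAF3 sh-PIP4K2B cells after etoposide (6.59), and differentiated KK-TAF3 sh-PIP4K2B cells (6.52). Among neighbours in this order only the first pair was called apart. The next 3 pairs differed by less than 1.4-fold with adjusted p between 0.195 and 0.691, and the last pair was not compared.

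Among members short of 1.4-fold, Ryr1 was higher after etoposide by 0.33 (adjusted p = 0.00158) in WT-TAF3 shX cells and 0.32 (adjusted p = 0.00222) in KK-TAF3 sh-PIP4K2B cells, and by 0.17 (adjusted p = 0.0664) in WT-TAF3 sh-PIP4K2B cells. In WT-TAF3 shX cells Atp2a1 differed by 0.27 and Jph1 by 0.25, while in WT-TAF3 sh-PIP4K2B cells Srl differed by -0.36, Atp2a1 by -0.27 and Jph1 by -0.22, each with an adjusted p under 0.05. In WT-TAF3 shX cells 5 of 10 members had such a p, where 23.1% of all genes did. Casq1 and Atp2a2 differed by between -0.15 and 0.17 in the 3 genotypes and were not called. Of the 12 muscle markers 5 were called lower after etoposide and 2 higher in WT-TAF3 shX cells. Their mean was 8.52 to 8.54 after etoposide, against 8.79 to 8.81 after differentiation, and their part in the members' values was not tested.

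**Figure D4:**
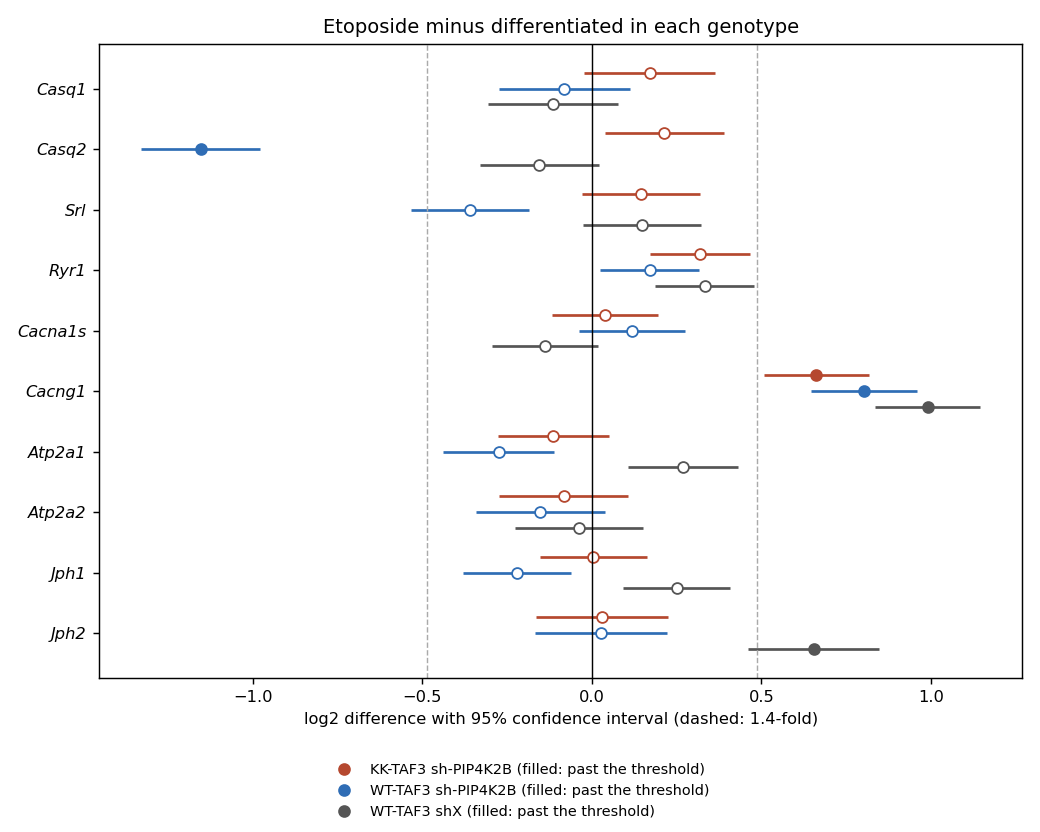
Log2 difference between etoposide and differentiation, with 95% confidence intervals, in KK-TAF3 sh-PIP4K2B, WT-TAF3 sh-PIP4K2B and WT-TAF3 shX cells; filled points were called and dashed lines mark 1.4-fold. Cacng1 was called in each genotype (0.66, 0.80 and 0.99), Casq2 in WT-TAF3 sh-PIP4K2B cells (-1.15) and Jph2 in WT-TAF3 shX cells (0.65).

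Of 58 further genes of calcium handling on 6 lists, 50 were measured. After differentiation 1 of them was called higher on PIP4K2B depletion and none lower, and none was called in KK-TAF3 sh-PIP4K2B cells against either WT-TAF3 group. The gene called was Trdn, which encodes triadin, the protein that anchors calsequestrin to the ryanodine receptor. Its mean was 11.66 in WT-TAF3 sh-PIP4K2B cells, against 11.13 in WT-TAF3 shX cells, a difference of 0.53 (SE 0.11, adjusted p = 0.00781). In KK-TAF3 sh-PIP4K2B cells the mean was 11.19. All KK-TAF3 arrays (11.09 to 11.24) lay below all WT-TAF3 sh-PIP4K2B arrays (11.62 to 11.70), but this difference was not called. Arrays of these groups did not overlap in 21% of all genes. After etoposide Trdn was the only one of the 50 called between genotypes, with means of 9.21 in KK-TAF3 sh-PIP4K2B cells, 9.32 in WT-TAF3 sh-PIP4K2B cells and 9.96 in WT-TAF3 shX cells. Depletion changed it by -0.64 (adjusted p = 0.00176), and its depletion effects under the treatments differed by -1.17 (SE 0.15, adjusted p = 0.000331). The median over the 50 was -0.02 on depletion and 0.01 for KK-TAF3 after differentiation.

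The difference of depletion effects was called in 7 of these 50 genes, where 4.02% of all genes were called. Over all genes the calls of this test numbered 388 higher and 413 lower, but 39 and 57 with the array median as a covariate. The 5 lower ones were Trdn, the potassium channel Tmem38b of the reticulum membrane at -0.68, Mrln, whose micropeptide myoregulin inhibits SERCA, at -0.59, the scaffold Homer1 at -0.57 and the accessory channel subunit Cacna2d1 at -0.53. The 2 higher ones were the junctophilin Jph4 at 0.54 and the scaffold Homer2 at 0.49. In WT-TAF3 shX cells 4 of the 50 were called between etoposide and differentiation, a share near the 7.63% of all genes. The accessory channel subunit Cacnb1 was higher after etoposide by 0.56 and Homer1 by 0.54, while Slc8a1, the sodium-calcium exchanger, was lower by -1.35 and Trdn by -1.17.

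The genes whose 6 group means ran closest to those of Casq2, each centred on its own mean, were Myl4, Ppef1, Myh3, Usp18 and Defb41, with root mean square differences of 0.12, 0.13, 0.17, 0.17 and 0.21 log2 units among 18200 named genes. Myl4 and Myh3 encode a myosin light and heavy chain of embryonic muscle. For Srl they were Lyz2, Atp6v0e2, Btla, Smc4 and Cgas, at 0.07 log2 units each. The likeness was taken over 6 group means of 3 arrays each and is a description.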

How the data were processed

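RNA of 18 C2C12 cultures was measured on Affymetrix mouse gene arrays, 3 per group. The authors deposited log2 values made by RMA in Affymetrix Expression Console (versions not given in the sources used here); RMA subtracts a modelled background, quantile-normalizes and pools the probes of a cluster, which compresses changes of dim genes. Of 35556 transcript clusters 21789 had 1 gene symbol in the annotation used, 1621 several and 12146 none listed; the paper's supplement names a later chip generation than this annotation. The brightest cluster of each of 19938 genes was kept. The name shX is taken from the paper, since the labels name no control shRNA.

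Each comparison was a contrast in a single limma 3.58.1 fit (R 4.3.3) of 6 group means (12 residual and 6.05 prior degrees of freedom), at a Benjamini-Hochberg adjusted p under 0.05 over all genes with a change above 1.4-fold. SE is the standard error of that fit and intervals are its 95% confidence intervals. The code was tested on simulated data. With 3 arrays per group, the number of arrays limits the precision.

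The members and lists (6 of calcium handling, muscle differentiation, cardiac, reserve cell, smooth muscle and fibroblast, fat, bone, macrophage and neural markers) were chosen with earlier results of these data known. Besides the members, genes named were those of the calcium lists with the smallest adjusted p past the threshold (up to 4 per direction; in the difference of depletion effects 1 more, so that all are named), Trdn, muscle markers and the 5 most alike genes.

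Replicate numbers were checked as pairs by the correlation of deviations from group means. After etoposide, same-numbered arrays of the WT-TAF3 sh-PIP4K2B and WT-TAF3 shX groups deviated together in 3 of 3 pairs (r between 0.33 and 0.56). Those of the KK-TAF3 sh-PIP4K2B and WT-TAF3 shX groups had r of 0.17, 0.10 and 0.59, the first 2 of them weak. The pairing comes from the data and not from the labels. In the other comparisons at most 1 of 3 pairs was at 0.1 or above. The lowest r was -0.42, for etoposide against differentiation in WT-TAF3 sh-PIP4K2B cells. The alternatives tried were a trended robust prior, an unadjusted p, dropping the fold limit, only genes above the median signal, the mean of a gene's clusters, every cluster tested, fits on fewer arrays, centring on the array median, that median as a covariate, leaving out each array and a replicate block; a block on the 2 paired etoposide groups alone was added after the data had been seen. Promoter sequences are RefSeq's on GRCm38.p6. Python 3.11.15 with pandas 2.3.3 and matplotlib 3.10.9 drew the figures.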

Additional observations from a re-analysis of the deposited data

Results flagged for a closer look

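The effect of a genotype was called different between etoposide and differentiation, by the test of the difference itself in limma, for 4 members. For PIP4K2B depletion, the effect after etoposide minus that after differentiation was -0.997 for Casq2 (adjusted p = 0.000122), -0.51 for Srl (adjusted p = 0.0236), -0.54 for Atp2a1 (adjusted p = 0.0128) and -0.63 for Jph2 (adjusted p = 0.0154). For KK-TAF3 against WT-TAF3 the difference was 1.37 for Casq2 (adjusted p = 1.74e-05). The WT-TAF3 sh-PIP4K2B arrays are shared by both Casq2 results. Of all genes 4.02% were called in the test for depletion and 0.15% in that for KK-TAF3. With the array median as a covariate Casq2 stayed called for depletion, while Srl, Atp2a1 and Jph2 did not. When 1 array was left out, Srl lost its call in 7 of 12 fits, and Atp2a1 and Jph2 in 1 each.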

How the results depend on the processing

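Single values under alternatives were listed for pairs of member and comparison called in at least 1 fit under both limits. Pairs with no such call were left out. Of these 381 values, 340 kept their direction and side of the threshold, 17 lost a call, 24 gained one and 0 turned direction. Over all 1896 values of members, 52 turned direction, and 0 of these were called in the main fit or after the turn. With no fold limit the counts of members called after differentiation were 5 for PIP4K2B depletion (2 with the limit) and 3 for KK-TAF3 (1). For KK-TAF3 sh-PIP4K2B cells against shX cells they were 3 (1) after differentiation and 1 (0) after etoposide. For etoposide against differentiation they were 5 (2), 5 (2) and 2 (1) in WT-TAF3 shX, WT-TAF3 sh-PIP4K2B and KK-TAF3 sh-PIP4K2B cells. Of all genes 6.14% met this rule for depletion and 0.978% for KK-TAF3 after differentiation, and 23.1% for etoposide in WT-TAF3 shX cells. In the other comparisons this share was not counted, so their counts of members cannot be set against it. With genes above the median signal (6 members, not Casq2) the members called numbered 1, 0 and 0 in the 3 comparisons of differentiated cells. They numbered 1 for etoposide in WT-TAF3 sh-PIP4K2B cells and 0 for the difference of KK-TAF3 effects (1). PIP4K2B depletion after differentiation gave 4 with centred arrays, Jph1 and Jph2 added, and 1 with the array median as a covariate; the difference of depletion effects gave 1 with that covariate (4), and the difference of KK-TAF3 effects 2 at an unadjusted p. The cause of these shifts was not tested. Leaving out 1 array gave 2 to 3 for depletion, 1 to 2 for KK-TAF3 (2 without WT-TAF3 sh-PIP4K2B replicate 1) and 0 to 1 for KK-TAF3 sh-PIP4K2B cells against shX cells after differentiation, 0 to 1 for the last after etoposide, 2 to 5 for the difference of depletion effects (2 without WT-TAF3 sh-PIP4K2B replicate 2 or without WT-TAF3 shX replicate 1, both differentiated) and 1 to 2 for that of KK-TAF3 effects (2 without WT-TAF3 sh-PIP4K2B differentiated replicate 1); the other comparisons kept their counts. With the replicate number as a block the counts were the same as without it, for example 2 for depletion and 1 for KK-TAF3 after differentiation and 4 for the difference of depletion effects, and 0 of 18 arrays correlated best with their own number in every other group; the block on the paired etoposide groups alone also gave 0 in both comparisons and changed no call. Srl also lost its call in the difference of depletion effects when every cluster was tested (adjusted p = 0.0526).

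Over all genes, higher and lower calls were 136 and 75 for depletion after differentiation, but 318 and 31 with centred arrays, 58 and 86 with the median as a covariate and 97 and 43 above the median signal. For KK-TAF3 sh-PIP4K2B cells against shX cells they were 164 and 87, but 383 and 50 centred, 88 and 81 with the covariate and 109 and 29 above the median signal; for KK-TAF3 60 and 43, but 33 and 24 above the median signal. For depletion after etoposide they were 64 and 109, but 38 and 149 centred and 96 and 81 with the covariate, and for KK-TAF3 after etoposide 68 and 13, but 52 and 19 with the covariate. For etoposide in WT-TAF3 sh-PIP4K2B cells they were 726 and 1257, but 402 and 1939 centred, which shifts the median gene by -0.11, and 746 and 705 with the covariate; in KK-TAF3 sh-PIP4K2B cells 702 and 959, but 509 and 1204 and 727 and 663. For the difference of depletion effects they were 388 and 413, but 66 and 1290 centred, 39 and 57 with the covariate, 96 and 387 above the median signal, 713 and 652 unadjusted and 258 and 396 with the block, and for that of KK-TAF3 effects 27 and 3, but 105 and 38 unadjusted.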

Other observations

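Among the etoposide arrays, replicate 3 gave the lowest signal in each of the 3 genotypes for 5 of 10 members (Srl, Ryr1, Atp2a1, Atp2a2 and Jph2), where 13% of all genes did so; this was looked at after the values had been seen. Atp2a2 read 12.13 on replicate 3 of each genotype, against 12.38 and 12.29 on the other KK-TAF3 sh-PIP4K2B arrays, 12.37 and 12.13 on the other WT-TAF3 sh-PIP4K2B arrays and 12.49 and 12.42 on the other WT-TAF3 shX arrays. In the WT-TAF3 sh-PIP4K2B group replicate 3 did not stand apart from replicate 2, for Atp2a2 or for Atp2a1 (8.50 on both). The deviations of these 3 arrays correlated with r between 0.48 and 0.59 across genes, which are not independent replicates.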
